A study of Mus musculus with 42 samples.

Results

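C2C12 is a mouse muscle cell line whose proliferating myoblasts (MB) stop dividing and fuse into myotubes (MT) when serum is lowered. The libraries described here hold cytoplasmic RNA of MT cells after 1 h in 250 µM sodium arsenite (arsenic stress, AS), compared with non-treated (NT) MT cells. They were chosen by their titles and are 3 of the 42 libraries of the series, 1 AS library and 2 NT libraries. The NT libraries carry the times 0 h and 4 h and are called NT replicate 1 and NT replicate 2. The AS library carries 0 h, as NT replicate 1 does. All MT cells, NT and AS alike, had been differentiated in medium with 2% horse serum, and the labels give the strain as C57BL/6. Values of MT cells after AS and 4 h of recovery (RC4), and of MB cells treated in the same way (2 NT libraries and 1 AS library), are set beside them where they show a difference. Nothing in the labels says whether the NT libraries came from separate cultures, so p-values measure only the spread between these libraries, which may be technical.

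Arsenite binds thiol groups of proteins, which makes proteins misfold and raises oxidants in the cell. Cells answer it by several known routes: the factor HSF1 switches on heat shock protein genes, NRF2 switches on antioxidant genes, MAP kinases switch on immediate early genes such as Fos and Jun, and phosphorylation of eIF2α lowers translation while favouring ATF4. The 3′ end of a message is also subject to choice. Many genes have a proximal and a distal polyadenylation site (pPAS and dPAS) in the 3′UTR, and the stretch between them, the alternative 3′UTR (aUTR), is present only in the long isoform, where it can hold sites for RNA-binding proteins and microRNAs.

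Reads of 3′READS start from the poly(A) tail, so a PAS is counted by the transcripts with that end. The NT libraries held 2332277 and 2814299 PAS reads and the AS library 2923091. Of these, 83.1% and 83.0% lay in 3′UTRs in NT and 86.9% in AS. Reads of mitochondrial transcripts made up 6.52% and 7.38% in NT and 2.42% in AS, so they were left out of the gene comparisons and of the scaling. The NT libraries were not copies of each other: over 7343 genes the chi-square of their counts per degree of freedom was 5.51. The source field of these libraries reads Myoblast, and the differentiated state stands in their titles. Of 8 MT markers, all had reads in the AS library, and their summed level was 20394 and 21652 RPM (reads per 1000000 reads in nuclear genes) in NT and 17138 RPM in AS, against 179 and 249 RPM in MB NT. Without Mylpf the sum was not lower in AS, as the other 7 summed to 9551 and 9707 RPM in NT and 10749 RPM in AS. Among them Myog, the myogenic regulator of differentiation, Ckm, muscle creatine kinase, and Myh3, embryonic myosin heavy chain, had no listed reads in MB. Like Mylpf, Ckm, Myh3, Tnnt3 and Ttn were below both NT libraries in AS, while Acta1, Myog and Actn2 were above both. The higher sum of the 7 came through Acta1, at 5285 and 5210 RPM in NT and 6845 RPM in AS. The 6 markers of proliferating MB summed to 307 and 278 RPM in MT NT and 255 RPM in MT AS, against 1566 and 1126 RPM in MB NT. Of 4 markers of undifferentiated or reserve cells, summed at 145 and 181 RPM in NT and 197 RPM in AS, Pax7 was not listed in any library. The nuclear RNAs Malat1 and Neat1 summed to 5.00 and 59.0 RPM in NT and 16.4 RPM in AS, against 794 and 769 RPM in total RNA of MT cells. A cluster of fewer than 5 reads is not listed for a library, so a gene that is not listed may still have had up to 4 reads per PAS cluster.

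The first question was which genes had more or fewer reads after 1 h of AS. After AS 5 genes rose, all of them known early stress genes: the transcription factors Fos, Atf3 and Jun, the HSP40 co-chaperone Dnajb1 and the heme oxygenase Hmox1. They rose 7.27- to 46.6-fold over the NT libraries. None of the other genes passed the test in either direction, although chaperone, immediate early and ATF4 target genes were among those with the highest values. The test was edgeR's quasi-likelihood test over 10088 genes with Benjamini-Hochberg adjustment, in a fit of the 8 cytoplasmic C2C12 libraries. It raised 5 genes (0.0496%) and lowered 0 (0%), while 555 were higher and 435 lower at an unadjusted p under 0.05, and DESeq2 called 48 higher and 7 lower. Since AS has 1 library, the fit assumes that it varies as the NT pairs do. When either NT replicate of MT was left out, no gene was called, and with the time in the titles as a block the fit raised 9 genes, these 5 among them, and lowered 0.

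Fos pairs with Jun proteins in the factor AP-1 and is a textbook immediate early gene. It was at 8.06 and 8.78 RPM in NT and 376 RPM in AS. The log2 fold change was 5.47 ± 0.25 (SE approximated from edgeR's F statistic, here and below, edgeR adjusted p = 0.00534). Atf3, a stress-induced factor of the same bZIP family, was at 7.59 RPM in both NT libraries and 344 RPM in AS, a log2 fold change of 5.49 ± 0.27 (edgeR adjusted p = 0.00534). Both lay far outside the NT libraries, which lay close together. Jun was at 58.3 and 44.3 RPM in NT and 424 RPM in AS, with a log2 fold change of 3.05 ± 0.25 (edgeR adjusted p = 0.0387). Dnajb1, which stimulates the ATPase of HSP70, was the most abundant of the 5, at 145 and 184 RPM in NT and 1896 RPM in AS (log2 fold change 3.53 ± 0.23, edgeR adjusted p = 0.0205). Hmox1, which degrades heme and is a main target of NRF2, was at 23.7 and 17.6 RPM in NT and 321 RPM in AS (log2 fold change 3.96 ± 0.28, edgeR adjusted p = 0.0215). In all 5 genes the AS value stood above both NT values. Over the alternatives that gave a value, the adjusted p was under 0.05 in 7 of 9 for Atf3, Dnajb1 and Hmox1, 6 of 8 for Fos and 6 of 9 for Jun. Its highest values were 0.648 for Atf3 and Fos, 0.769 for Dnajb1 and Hmox1 and 0.904 for Jun.

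The leading PAS of each of these genes had a polyadenylation signal. The leading PAS held 100% of the AS reads of Atf3 and Hmox1, 98.3% of Fos, 88.5% of Dnajb1 and 66.5% of Jun. The last 30 nt of the transcript at these sites, read from the mm9 genome, are shown so that the measured ends can be seen, with the signal AATAAA or ATTAAA in capitals. The sites lie in the last exon (Atf3, Hmox1, Jun) or just past the annotated end of the gene (Fos, Dnajb1).
Fos, PAS at position 86818224 of chromosome 12, plus strand: tgtcAATAAAagcatttaagttgaatgcga
Atf3, PAS at position 192994175 of chromosome 1, minus strand: atAATAAAtatcggaacaaaacctggtaaa
Jun, PAS at position 94716389 of chromosome 4, minus strand: cAATAAAcagcttcctgcctttgtaagtta
Dnajb1, PAS at position 86135802 of chromosome 8, plus strand: gacagcATTAAAgactgatgctaaacctca
Hmox1, PAS at position 77624489 of chromosome 8, plus strand: gaaatAATAAAtggcattatctaacagtca
In MB cells the same genes were also above both NT libraries after AS. Atf3 was at 14.7 and 9.81 RPM in MB NT and 902 RPM in MB AS, Hmox1 at 17.3 and 25.5 RPM and then 392 RPM, and Dnajb1 at 207 and 165 RPM and then 2285 RPM. After recovery Atf3, Hmox1 and Dnajb1 stood higher than in AS, at 2426, 3899 and 11672 RPM in MT RC4. Fos stood lower, at 240 RPM, and Jun was at 541 RPM. The AS and RC4 values share the NT libraries, and the AS to RC4 differences, between 1 library each, were not tested.

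**Figure D1:**
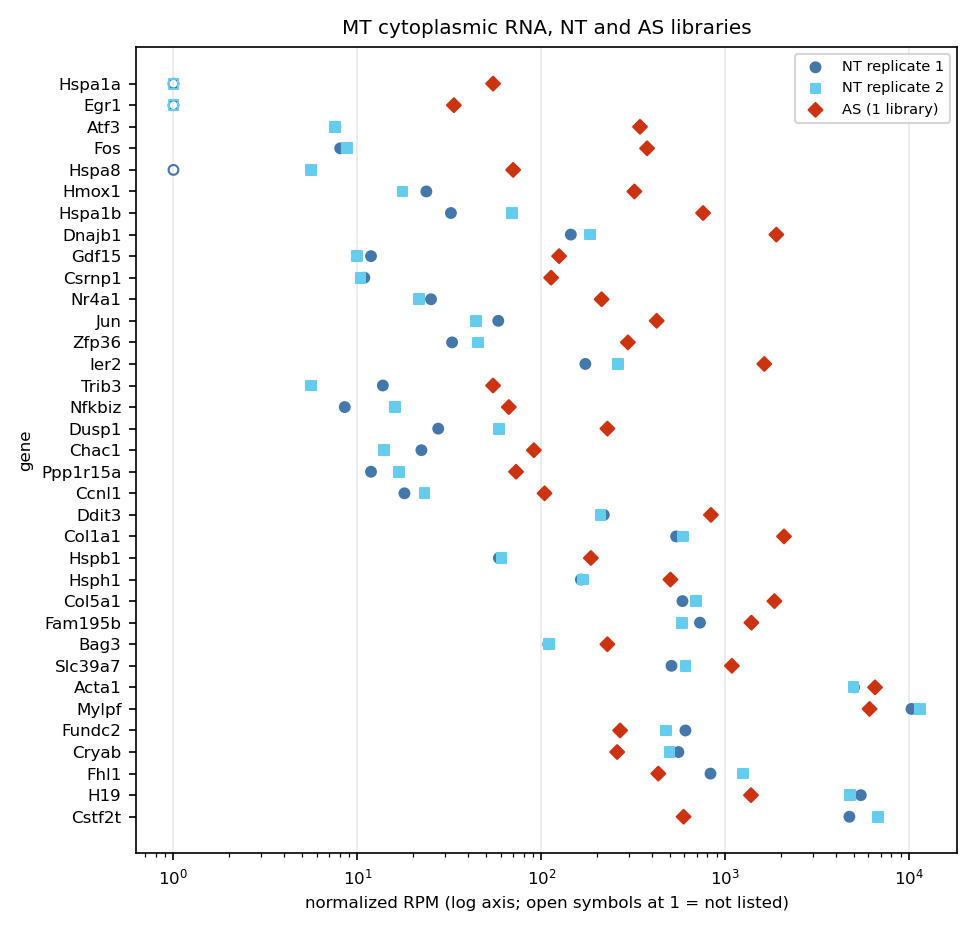
Normalized RPM (x axis, log scale) of named genes (y axis) in the 2 NT libraries and the AS library of MT cells, ordered by log2 fold change. Fos, Atf3, Hmox1, Dnajb1 and Jun passed the test; Cstf2t and H19 stood lowest in AS relative to NT, and open symbols mark genes not listed in a library.

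The test has few degrees of freedom and takes its spread from the NT pairs of both MT and MB. Genes were therefore also counted by size alone, without a test. Of 8267 genes with at least 20 reads on average in the higher condition, 253 stood at least 2-fold above both NT libraries in AS (3.06%) and 173 at least 2-fold below both (2.09%). For scale, NT replicate 2 stood at least 2-fold above NT replicate 1 in 171 genes (2.07%) and at least 2-fold below it in another 171 (2.07%), a comparison with 1 library rather than with both. Against NT replicate 1 alone, AS was at least 2-fold higher in 490 genes and lower in 302, and against NT replicate 2 in 557 and 360. The spread of log2 ratios between the NT libraries was an SD of 0.65 at 5 to 20 RPM, 0.37 at 20 to 100 RPM and 0.28 from 100 RPM. For AS against NT replicate 1 these SDs were 0.82, 0.54 and 0.50. AS thus differed from NT by more than the NT libraries from each other at each level, and most plainly among abundant messages. The lists below are read against the 3.06% and 2.09% of all genes. In them too, only genes over this minimum of 20 reads were counted as at least 2-fold above or below.

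**Figure D2:**
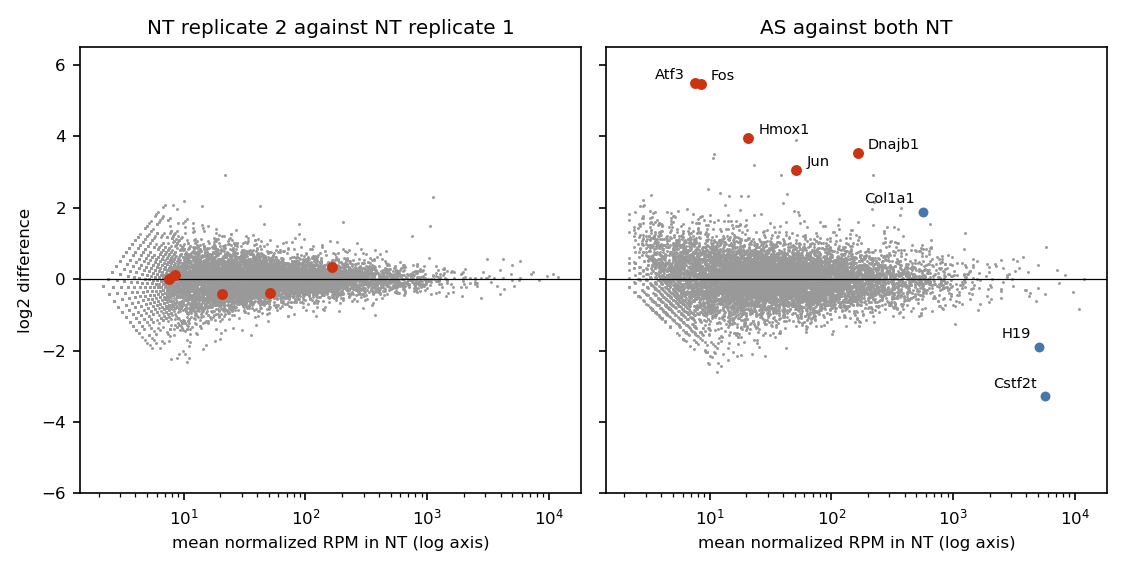
Log2 difference (y axis) against mean normalized RPM in NT (x axis, log scale) for genes listed in all 3 MT libraries, on the left for NT replicate 2 against NT replicate 1 and on the right for AS against both NT. Red points are the 5 genes that rose; Col1a1, H19 and Cstf2t are marked in blue at the abundant end.

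AP-1 genes held most of the genes that rose. Of 11 AP-1 genes tested, 3 rose (Atf3, Fos and Jun), 5 stood at least 2-fold above both NT libraries and 0 below, and the median log2 fold change was 1.21, against 0 over all genes. The other members above were Fosb, which was not listed in NT and stood at 10.8 RPM in AS, and Fosl2, at 46.5 and 43.1 RPM in NT and 98.9 RPM in AS. Junb was at 40.3 and 77.1 RPM in NT and 137 RPM in AS, under the 2-fold mark against NT replicate 2.

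Other immediate early genes, switched on within minutes by growth factor and stress kinases, held 11 of 31 members at least 2-fold above both NT and 0 below, none past the test, with a median log2 fold change of 0.87. Ier2 had the most reads, at 174 and 262 RPM in NT and 1631 RPM in AS (log2 fold change 2.90 ± 0.34, edgeR adjusted p = 0.101). Zfp36, whose protein binds AU-rich elements and speeds decay of the messages that hold them, was at 32.7 and 45.1 RPM in NT and 296 RPM in AS (log2 fold change 2.92 ± 0.26, edgeR adjusted p = 0.0517). Nr4a1, an orphan nuclear receptor, was at 25.1 and 21.6 RPM in NT and 213 RPM in AS. Csrnp1, a nuclear factor induced by several stresses, was at 10.9 and 10.4 RPM and then 113 RPM. In each of these the AS library lay above both NT libraries by at least 6.22-fold. Egr1, a zinc finger factor, was not listed in either NT library and stood at 33.5 RPM in AS (edgeR adjusted p = 0.205). Taking up to 4 unlisted reads at each of its 4 clusters, this was at least 4.41-fold over NT replicate 1 and 5.24-fold over NT replicate 2. The antiproliferative gene Btg2 was at 46.9 and 33.9 RPM in NT and 178 RPM in AS, and Rhob, a small GTPase, at 628 and 561 RPM in NT and 1077 RPM in AS. Rhob was under the 2-fold mark against both NT libraries. The remaining genes at least 2-fold above were Klf2, Klf6, Gadd45b, Gadd45g and Ier5.

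Of 10 MAP kinase phosphatases, which switch these kinases off again, 2 stood at least 2-fold above both NT and 0 below, none past the test, with a median of 0.16. Dusp1 was at 27.5 and 58.7 RPM in NT and 229 RPM in AS. The NT libraries themselves differed 2.13-fold for this gene. Dusp2 was low, at 2.85 RPM and not listed in NT, and 12.3 RPM in AS. Dusp14, by contrast, was at 43.6 and 35.1 RPM in NT and 42.4 RPM in AS.

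Chaperone genes were divided. Of 11 genes of the HSP70 and HSP110 families, which refold proteins, 4 stood at least 2-fold above both NT and 0 below, none past the test, with a median log2 fold change of 0.76. Hspa1b, the stress-inducible HSP70, was at 32.2 and 69.5 RPM in NT and 757 RPM in AS (log2 fold change 3.88 ± 0.45, edgeR adjusted p = 0.0939). Its neighbour Hspa1a was not listed in NT and stood at 54.7 RPM in AS, at least 9.60-fold and 11.4-fold over the unlisted reads that the NT libraries could hold. Hsph1, the HSP110 nucleotide exchange factor, was at 164 and 169 RPM in NT and 503 RPM in AS. Hspa5, the endoplasmic reticulum HSP70 counted below with the unfolded protein response, stood at 581 and 685 RPM in NT and 1088 RPM in AS. The mitochondrial member Hspa9 was at 293 and 323 RPM in NT and 333 RPM in AS, within 1.14-fold of both NT libraries. Hspa8, the constitutive HSP70, was not listed in NT replicate 1 and was at 5.59 RPM in NT replicate 2 and 70.3 RPM in AS. All its listed reads ended upstream of its last exon, 57.1% of those in AS at the 3′ end of the small nucleolar RNA Snord14c inside the gene, 10.1% at that of Snord14d and 3.17% at that of Snord14e. Its value is therefore mostly one of small nucleolar RNA ends, and without it 3 members of the list stood at least 2-fold above.

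Among 30 DNAJ co-chaperones, Dnajb1 alone rose. Of the 28 over the read minimum, it alone stood at least 2-fold above both NT. A member under that minimum had the list's highest log2 fold change, 6.72. The list's median was -0.07. Of 18 HSP90 genes and co-chaperones, 0 stood at least 2-fold above and 1 (Nudc) below, none past the test, with a median of 0.19. Cdc37, which brings kinases to HSP90, was at 664 and 714 RPM in NT and 895 RPM in AS, and Fkbp4 at 460 and 393 RPM in NT and 486 RPM in AS. Of 9 chaperonin genes, 0 stood at least 2-fold above or below, none past the test, with a median of 0.15, Cct5 being at 1374 and 1238 RPM in NT and 1451 RPM in AS and Hspe1 at 999 and 872 RPM in NT and 859 RPM in AS. In these 4 chaperone lists the genes at least 2-fold above both NT were thus Dnajb1, Hspa1a, Hspa1b and Hsph1, apart from Hspa8.

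The small heat shock proteins had values on either side of NT. Of 7 genes with BAG3, none passed the test, 2 stood at least 2-fold above both NT and 1 below, with a median of 0.30. Hspb1 was at 58.8 and 60.7 RPM in NT and 186 RPM in AS (log2 fold change 1.64 ± 0.20, edgeR adjusted p = 0.101). Bag3, which links HSP70 to small heat shock proteins in muscle, was at 109 and 111 RPM and then 229 RPM. Both lay above the NT libraries, whose values were close together. Of the 7 genes, 4 lay above both NT libraries and 3 below both, Hspb6 and Cryab among the latter. Hspb6 was at 64.0 and 59.1 RPM in NT and 21.9 RPM in AS (log2 fold change -1.48 ± 0.39, edgeR adjusted p = 0.430). Cryab, the αB-crystallin that guards desmin and the sarcomere, was at 556 and 497 RPM in NT and 258 RPM in AS (log2 fold change -1.03 ± 0.21, edgeR adjusted p = 0.365). In MB cells Cryab stood above its NT libraries, at 199 and 215 RPM in NT and 377 RPM in AS. The difference between MT and MB in its log2 fold change was -1.89 ± 0.29. It was not called by edgeR across all genes, for which the smallest adjusted p of such a difference was 0.840. In MT RC4 Cryab was at 3211 RPM, so it lay below NT after 1 h of AS and above it in the recovery library.

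NRF2 targets showed Hmox1 and little else. Of 23 genes, 1 rose and the median was 0. Of the 20 over the read minimum, 3 stood at least 2-fold above both NT and 0 below. A member under that minimum had the list's highest log2 fold change, 5.24. Osgin1 was at 11.4 and 18.8 RPM in NT and 46.9 RPM in AS, and Abcc4, an exporter, at 2.85 and 2.00 RPM and then 8.92 RPM. The glutathione synthesis genes Gclm and Gclc were at 51.2 and 92.2 RPM in NT and 53.5 RPM in AS, and at 30.8 and 55.9 RPM in NT and 28.3 RPM in AS. Srxn1, sulfiredoxin, was at 57.4 and 49.5 RPM in NT and 49.1 RPM in AS. Their AS values lay inside or close to the NT range.

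The metal-binding metallothioneins varied widely in NT. Of 3 genes tested with the zinc exporter, none passed the test and 0 stood at least 2-fold above or below, with a median of -0.13. Mt1 was at 552 and 1560 RPM in NT and 962 RPM in AS, and Mt2 at 374 and 1847 RPM in NT and 820 RPM in AS. The NT libraries differed by more than AS from either of them. In MB cells Mt1 was at 1208 and 1035 RPM in NT and 3771 RPM in AS, above both.

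ATF4 targets, the genes of the integrated stress response, held 6 of 23 members at least 2-fold above both NT and 0 below, none past the test, with a median of 0.61. Ddit3, which encodes the death-promoting factor CHOP, was at 219 and 210 RPM in NT and 836 RPM in AS (log2 fold change 1.96 ± 0.20, edgeR adjusted p = 0.0843). Trib3, a pseudokinase, was at 13.8 and 5.59 RPM in NT and 54.7 RPM in AS, and Chac1, which degrades glutathione, at 22.3 and 13.97 RPM and then 91.1 RPM. Ppp1r15a, the GADD34 subunit that dephosphorylates eIF2α, was at 11.9 and 16.8 RPM in NT and 72.9 RPM in AS. All 4 stood above both NT libraries by at least 3.82-fold. Pck2 and Sesn2 completed the 6. Atf4 itself was at 717 and 752 RPM in NT and 1123 RPM in AS, and Atf5 at 641 and 649 RPM in NT and 595 RPM in AS. Gdf15, a secreted stress cytokine outside the list, was at 11.9 and 9.98 RPM in NT and 125 RPM in AS (log2 fold change 3.52 ± 0.34, edgeR adjusted p = 0.0820).

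Genes of the unfolded protein response of the endoplasmic reticulum numbered 19, of which 1 (Hyou1, at 10.0 RPM in AS) stood at least 2-fold above and 0 below, none past the test, with a median of 0.28. Canx, the lectin chaperone calnexin, was at 974 and 977 RPM in NT and 1485 RPM in AS. Of 15 p53 targets, 1 (Plk2) stood above and 1 (Aen) below, none past the test, with a median of 0.02. Cdkn1a, the cell cycle inhibitor p21 that is high in MT cells, was at 3094 and 3140 RPM in NT and 2706 RPM in AS, and Phlda3 at 550 and 544 RPM in NT and 553 RPM in AS. Neither list stood apart from all genes as the AP-1 list did.

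Of 18 ubiquitin and AN1 zinc finger genes, none passed the test and the median was near 0. Vcp, the segregase that extracts ubiquitin-marked proteins, was not listed in NT replicate 1, at 2.00 RPM in NT replicate 2 and at 9.30 RPM in AS. The 27 proteasome genes held 0 above and 0 below, none past the test, with a median of -0.11, Psmb4 at 1002 and 888 RPM in NT and 1280 RPM in AS and Psmb6 at 892 and 938 RPM in NT and 746 RPM in AS.

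**Figure D3:**
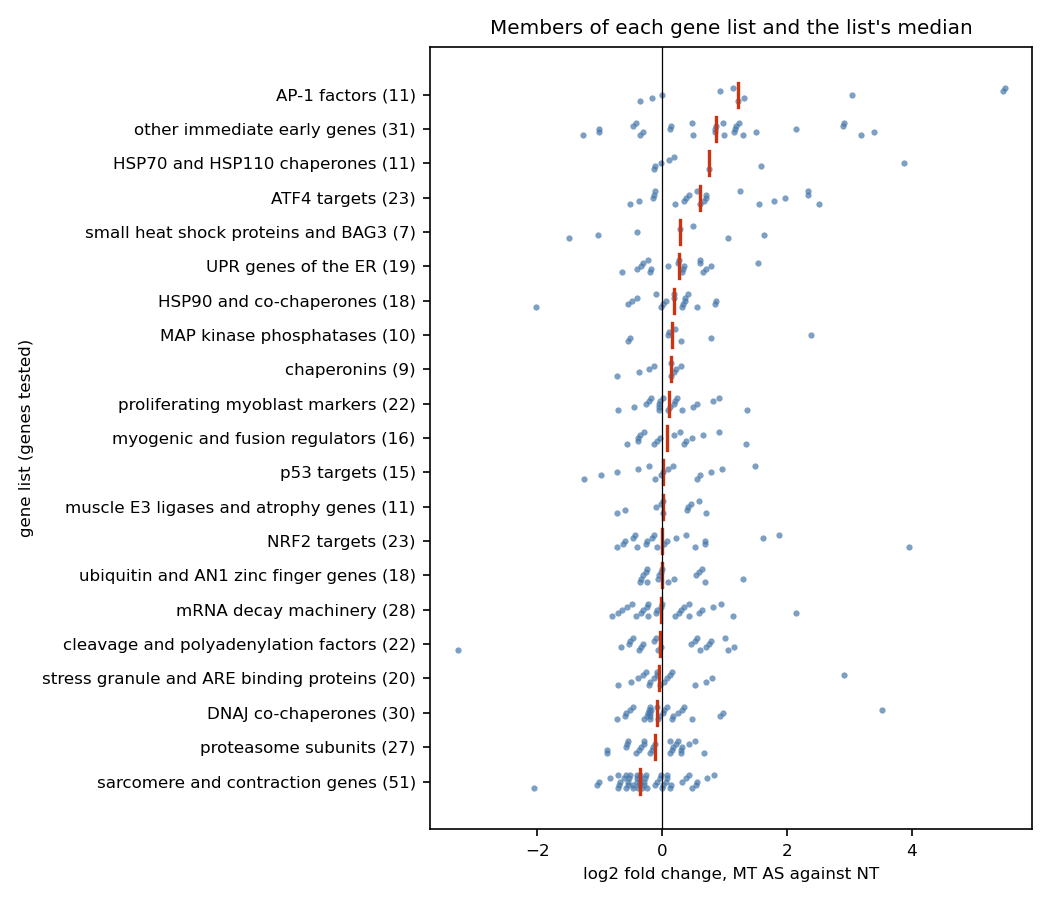
Log2 fold change of AS against NT in MT cells (x axis) for the members of each gene list (y axis, number of genes tested in parentheses), with the list's median as a red bar. Points are genes listed in all 3 libraries; lists with at least 7 tested genes are shown, and their medians run from -0.34 for sarcomere and contraction genes to 1.21 for AP-1 factors.

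No muscle gene fell by the test. Of 51 sarcomere and contraction genes, 31 lay below both NT libraries and 11 above both, where of all genes tested 36.5% lay below and 38.2% above both. In this list 0 stood at least 2-fold above and 1 (Trdn, at 2.23 RPM in AS) below, none past the test, and the median was -0.34. Mylpf, the fast regulatory myosin light chain, was the most abundant in NT, at 10292 and 11406 RPM in NT and 6088 RPM in AS (log2 fold change -0.83 ± 0.18, edgeR adjusted p = 0.382). Myl1 was at 505 and 533 RPM in NT and 326 RPM in AS, and the fast troponin Tnni2 at 1210 and 1162 RPM in NT and 731 RPM in AS. Other members lay above both NT libraries. Acta1, skeletal α-actin, was at 5017 and 4975 RPM in NT and 6523 RPM in AS, and the Z-disc protein Actn2 at 123 and 104 RPM in NT and 203 RPM in AS.

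Of 16 myogenic and fusion regulators, 1 (Hes1, a Notch target, at 12.3 and 12.4 RPM in NT and 31.6 RPM in AS) stood at least 2-fold above and 0 below, none past the test, with a median of 0.08. Myog was at 666 and 507 RPM in NT and 720 RPM in AS. Tmem8c, the fusion protein myomaker, was at 1294 and 1453 RPM in NT and 936 RPM in AS. Of 11 muscle E3 ligases and atrophy genes, 0 stood above or below, none past the test, with a median of 0.01, Trim54 at 116 and 122 RPM in NT and 118 RPM in AS and Asb5 at 97.2 and 156 RPM in NT and 128 RPM in AS. Of 22 proliferating MB genes, 1 (Aurkb, at 8.55 RPM in AS) stood above and 0 below, none past the test, with a median of 0.11, Rrm2 at 195 and 195 RPM in NT and 225 RPM in AS and Cdk1 at 186 and 161 RPM in NT and 145 RPM in AS. In bulk RNA fewer cells of a type and less RNA per cell cannot be told apart.

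Among 307 genes with at least 500 RPM in NT, 3 stood at least 2-fold above both NT libraries in AS and 2 below. The collagens had the highest ratios of the 3 above. Col1a1, the main chain of type I collagen, was at 541 and 589 RPM in NT and 2087 RPM in AS (log2 fold change 1.89 ± 0.20, edgeR adjusted p = 0.0903), and Col5a1 at 585 and 694 RPM in NT and 1851 RPM in AS. In MB cells Col1a1 was low, at 38.0 and 31.4 RPM in NT and 54.5 RPM in AS. Just under the mark were Fam195b and Slc39a7, a zinc transporter, at 510 and 607 RPM in NT and 1087 RPM in AS.

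The abundant genes at least 2-fold below NT were H19 and Cstf2t. H19, an imprinted noncoding RNA that is high in differentiating muscle, was at 5457 and 4776 RPM in NT and 1380 RPM in AS (log2 fold change -1.89 ± 0.21, edgeR adjusted p = 0.0939). The recovery library was at 2600 RPM, and MB cells had 93.4 and 104 RPM in NT and 57.8 RPM in AS. H19 was lower in AS than in both NT libraries in MT and in MB. Of its AS reads, 99.2% ended at the PAS at position 149761436 of chromosome 7, minus strand, which has a signal and is shown as the site that carries this difference.
H19, position 149761436: tgggtccatcAATAAAtacagttacagtca
Cstf2t encodes a polyadenylation factor. Its value was 4732 and 6738 RPM in NT and 593 RPM in AS (log2 fold change -3.27 ± 0.64, edgeR adjusted p = 0.340), and 3638 and 1429 RPM in MB NT. All AS reads came from a cluster past the annotated end of the gene, at position 31161481 of chromosome 19, plus strand. No signal was found upstream of it, so no letters are in capitals, and the genome there runs into a stretch of A.
Cstf2t, position 31161481: aacatccaatttcggttgggaaaaaaaaaa
The 18 nt before the A stretch occur 1 time in the mm9 genome and not in the mitochondrial genome. A site with its own signal, at position 31161086, had 7 reads in NT replicate 1 and none listed in NT replicate 2 or AS. Nearly all reads counted for Cstf2t thus ended at the cluster without a signal, and may not be those of the Cstf2t message, which was not tested. Next by size were Fhl1, at 831 and 1244 RPM in NT and 432 RPM in AS, and Fundc2, at 607 and 475 RPM in NT and 268 RPM in AS, which were under the 2-fold mark against 1 NT library each.

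Lower genes of middle abundance were mixed and none passed the test. Dph3, needed to make diphthamide, was at 99.1 and 102 RPM in NT and 34.6 RPM in AS (log2 fold change -1.54 ± 0.24, edgeR adjusted p = 0.247). Of the AS reads of Dph3, 92.5% ended at a cluster without a signal in an upstream exon. Its site in the last exon, with the signal AATAAA, held 7.53%. Gins2, of the replication helicase, was at 23.7 and 22.8 RPM in NT and 7.07 RPM in AS. Lfng, which glycosylates Notch, was at 20.4 and 28.4 RPM in NT and 7.07 RPM in AS. These genes were at least 2.87-fold lower than either NT library. Lfng was also lower in MB AS, at 36.01 and 32.0 RPM in NT and 15.4 RPM in AS, while Gins2 was not, at 63.4 and 49.7 RPM in NT and 84.4 RPM in AS.

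Genes that act on messages were taken as separate lists. Of 22 cleavage and polyadenylation factors, 2 (Fip1l1 and Cpsf6) stood at least 2-fold above both NT and 1 (Cstf2t, by the cluster without a signal) below, none past the test, with a median of -0.04. Fip1l1 was at 90.6 and 105 RPM in NT and 217 RPM in AS, and Cpsf6, a subunit of CFIm that favours distal sites, at 131 and 130 RPM in NT and 265 RPM in AS. Both lay above NT by little more than 2-fold. Ppp1ca was at 811 and 769 RPM in NT and 1097 RPM in AS. Of 20 stress granule and ARE-binding protein genes, 1 (Zfp36) stood above and 0 below, none past the test, with a median of -0.05, Elavl1, which encodes the stabilizing protein HuR, at 496 and 492 RPM in NT and 860.5 RPM in AS and Fxr1 at 247 and 244 RPM in NT and 239 RPM in AS. Of 28 mRNA decay genes, 2 (Btg2 and Cnot10) stood above and 0 below, none past the test, with a median of -0.01, and Lsm2 was at 194 and 232 RPM in NT and 138 RPM in AS. Of the nuclear long noncoding RNAs, 2 were tested and 0 passed. Malat1 and Neat1 differed between the NT libraries by more than AS from either, with Neat1 at 4.74 and 39.1 RPM in NT and 13.4 RPM in AS.

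Transcripts of the mitochondrial genome were compared as RPM of all reads, since they were not in the test. All 7 protein-coding mitochondrial genes with reads in both NT libraries were below both in AS. The subunit gene mt-Nd1 was at 19345 and 19678 RPM of all reads in NT and 6285 in AS, and mt-Nd4 at 16887 and 19863 in NT and 6291 in AS. The ratio of AS to NT replicate 1 ran from 0.325 for mt-Nd1 to 0.517 for mt-Nd5, apart from mt-Nd6, which lies on the other strand and was at 138 and 115 RPM in NT and 5.47 RPM in AS. In MB the mitochondrial share was 6.75% and 6.31% in NT and 3.44% in AS, and in MT RC4 it was 5.95%. Whether the cytoplasmic preparation played a part in this was not tested.

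The response of MT cells was set against that of MB cells, to ask whether genes responded differently before and after differentiation. In edgeR's test of the difference, 0 of 10088 genes passed (0%), with 567 at an unadjusted p under 0.05, and DESeq2 called 10. Of the 253 genes at least 2-fold above both NT in MT, 86 (34.0%) met the same mark in MB. The 86 may include genes not listed in these MB libraries, since 0 RPM throughout also met the mark. Of all 8267, 353 met it with reads listed in MB AS. Of the 173 below in MT, 28 (16.2%) met the mark for below in MB, again with unlisted genes allowed. Of all 8267, 112 met it with reads listed in both MB NT libraries. The 86 and 28 were thus counted by a looser rule than the 353 and 112, and their shares cannot be compared. Across 4846 genes with at least 20 RPM in NT of both, the Pearson r of the log2 fold changes was 0.44, as a description over genes, which are not independent. Over genes at 20 to 100 RPM in MT NT, the log2 ratio of the NT libraries had an SD of 0.72 in MB and 0.37 in MT. The genes were chosen by their MT level and some may be low in MB, so these SDs are not at matched levels. Fos stood lower in MB AS, at 5.34 and 4.58 RPM in NT and 149 RPM in AS, a difference in log2 fold change of 0.57 ± 0.44. For Gdf15 it was 1.78 ± 0.49, with MB at 32.7 and 54.9 RPM in NT and 146 RPM in AS. For Col1a1 it was 1.24 ± 0.32. For Dnajb1 the difference was -0.09 ± 0.34, which is smaller than its error.

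The second question was whether AS changed the 3′UTR isoforms in MT cells. For each gene the pPAS and dPAS were its 2 most abundant 3′UTR PASs at most 10 kb apart, and RED is the log2 ratio of dPAS to pPAS reads in AS minus that in NT. A negative RED means shorter 3′UTRs. Over the 2708 genes in which both isoforms exceeded 5 reads in all 3 libraries, the median RED of AS was -0.15 (-0.14 against NT replicate 1 and -0.17 against NT replicate 2), while that of NT replicate 2 against NT replicate 1 was 0.03. RED was below 0 in 58.6% of genes for AS and in 47.4% for the NT libraries. The SD of RED across genes was 0.70 for AS and 0.60 between the NT libraries, so that the shift of the median was small beside the scatter of single genes.

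By Fisher's exact test (P < 0.05 and a dPAS share that moved the same way by over 5 points against each NT library), 209 genes (7.72%) had shortened and 79 (2.92%) lengthened 3′UTRs. This test compares these libraries, not the conditions, and is unadjusted. By the same rule in a single comparison, NT replicate 2 was shorter than NT replicate 1 in 93 genes (3.43%) and longer in 117 (4.32%). Against NT replicate 1 alone AS was shorter in 329 and longer in 167, and against NT replicate 2 in 386 and 168. No gene was called in opposite directions against the NT libraries. Shorter calls outnumbered longer calls against each NT library, which they did not between the NT libraries. In an edgeR model of the isoform shift across the 8 libraries, 0 of 2708 genes passed (0%). At an unadjusted p under 0.05 there were 102 shortened and 36 lengthened genes, and the smallest adjusted p was 0.921. The shift is thus seen in the distribution over genes, and no single gene passed a test that uses replicates.

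The shift grew with the length of the aUTR. With the genes in 5 bins of aUTR length with medians of 61, 217, 555, 1213 and 2505 nt, the median RED of AS was 0.01, -0.11, -0.13, -0.23 and -0.35. Between the NT libraries the medians lay between 0.01 and 0.05 in all 5 bins. The longest bin held 59 shortened and 4 lengthened genes, the shortest 25 and 19. The longest minus the shortest bin was -0.36 for AS and -0.01 between the NT libraries. In the shortest bin AS differed from NT by less than the NT libraries did from each other.

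**Figure D4:**
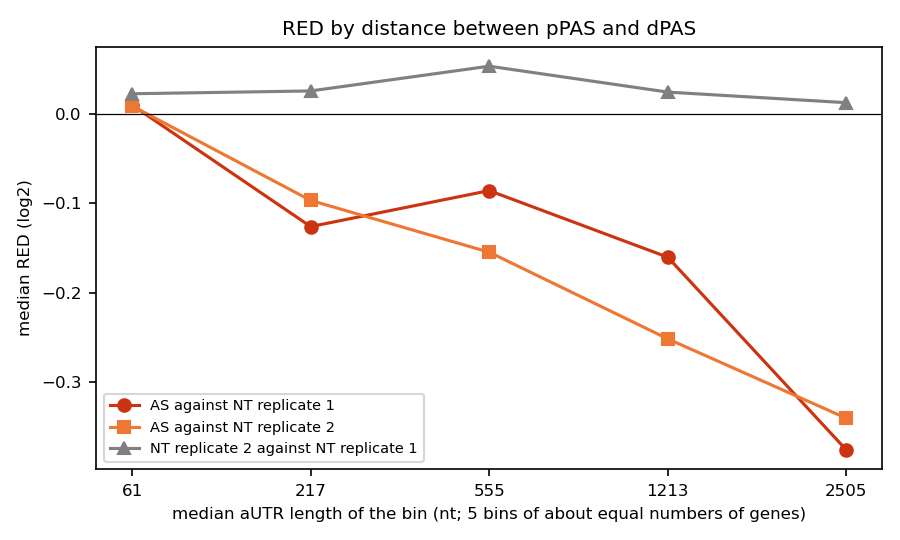
Median RED (y axis, log2) in 5 bins of genes by aUTR length (x axis, median length in nt), for AS against each NT replicate and for NT replicate 2 against NT replicate 1 in MT cells. The AS lines run from about 0 in the shortest bin to -0.38 and -0.34 in the longest, and the NT line stays at or above 0.01.

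The 209 shortened genes had a median aUTR of 926 nt, against 434 nt in the 79 lengthened and 536 nt in the 2420 others. The AU-rich pentamer, ATTTA in DNA letters, was in the aUTR of 69.4% of shortened, 48.1% of lengthened and 58.0% of other genes. Longer aUTRs hold more of any pentamer, and the count was not adjusted for length. The signal AATAAA was near the dPAS in 71.8% of shortened, 60.8% of lengthened and 58.4% of other genes. Near the pPAS it was found in 49.3% of shortened, 64.6% of lengthened and 48.8% of other genes. Called genes had more NT reads, with medians of 397 in shortened and 404 in lengthened against 246 in others. These shares were not adjusted for reads. The share of T in the aUTR was alike, with medians of 32.0% in shortened and 31.8% in other genes. Gene levels differed little: the median log2 fold change was -0.08 in shortened, -0.03 in lengthened and -0.04 in other genes.

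Among the genes the study singled out for their 3′UTR isoforms, 7 of 8 could be compared in MT, and 2 of them were shortened by the Fisher rule. Hspa4l, an HSP110 family chaperone with an aUTR of 5666 nt, had a dPAS share of 38.0% and 40.8% in NT and 17.8% in AS (Wilson 95% interval 13.3 to 23.3%, counting error only), a RED of -1.61. Its gene level was 101 and 142 RPM in NT and 112 RPM in AS, so the dPAS share was lower while the gene level lay within the NT range. Fam49b had a dPAS share of 46.4% and 42.0% in NT and 31.8% in AS (26.2 to 38.0%). Nmt1, an N-myristoyltransferase, was at 44.9% and 40.5% in NT and 48.3% in AS. Timp2, a protease inhibitor, was at 81.8% and 80.3% and then 85.5%. Rpl22 was at 64.6% and 55.4% and then 64.3%. For these 3 the AS share was not below both NT libraries. Dnajb1, which rose at the gene level, had a dPAS share of 88.5% and 83.3% in NT and 89.3% in AS, and 74.1% in MT RC4. Both isoforms had more reads in AS, with 270, 384 and 4511 reads at the dPAS and 35, 77 and 543 at the pPAS in NT replicate 1, NT replicate 2 and AS. The sites of Hspa4l are shown, since they bound the longest aUTR among these genes, with signals in capitals.
Hspa4l pPAS, position 40594359 of chromosome 3, plus strand: tgtgATTAAAttatagttcctgctgttaaa
Hspa4l dPAS, position 40600025: AATAAAtacatattctacctgctacttgaa
The proximal site carries the variant signal ATTAAA and the distal site AATAAA.

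The most negative REDs among called genes whose isoforms each had 50 reads or more in the 3 libraries together were those of Rpl12, 2610008E11Rik, BC003266, Cflar and Rcc2. Cflar, which encodes the inhibitor of caspase-8 activation c-FLIP, had a dPAS share of 85.8% and 86.0% in NT and 56.5% in AS (44.1 to 68.1%). Rcc2 was at 87.4% and 90.2% in NT and 64.5% in AS (58.9 to 69.8%). Rpl12 was at 40.9% and 50.0% in NT and 11.7% in AS (5.77 to 22.2%), on 53 pPAS and 7 dPAS reads. In all of them the AS interval lay clear of both NT shares, which follows from their choice by the Fisher rule against each NT library. The sites of Cflar and Rcc2 are shown since these genes have aUTRs of 1547 and 1745 nt, and capitals again mark the signal.
Cflar pPAS, position 58814181 of chromosome 1, plus strand: taatAATAAAtaagtctttaaaaaaaaaaa
Cflar dPAS, position 58815728: tcattacATTAAAgattatttcttttaaaa
Rcc2 pPAS, position 140277385 of chromosome 4, plus strand: caggacctctgagcgatgtaggttttttta
Rcc2 dPAS, position 140279130: aacattttaAATAAAcggcgtcattgttta
The Cflar pPAS lies before a run of A in the genome, and the Rcc2 pPAS has no signal.

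The most positive REDs were those of Sept2, Prpf4b, Rap2b, Bola1 and Ywhaq. Prpf4b, a kinase of the spliceosome, had a dPAS share of 2.31% and 3.51% in NT and 12.3% in AS (9.44 to 15.8%). Rap2b, a small GTPase, was at 40.9% and 51.1% in NT and 77.1% in AS (66.05 to 85.4%). For Sept2 the NT libraries themselves differed, at 24.6% and 10.3%, with 48.1% in AS.

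Of 136 members of the gene lists that could be compared, 16 (11.8%) were shortened and 4 (2.94%) lengthened, against 7.72% and 2.92% of all genes compared, and the lists were mostly of stress genes by choice. Rhob, whose gene level was higher in AS, had a dPAS share of 9.97% and 9.15% in NT and 3.30% in AS (2.69 to 4.04%), with 1102, 1181 and 2636 pPAS reads in NT replicate 1, NT replicate 2 and AS. Its dPAS reads were 122, 119 and 90, so the additional reads were at the pPAS. Plk2, a kinase among the p53 targets, went from 55.4% and 58.2% to 41.9% (38.1 to 45.9%), and Psmd14, the proteasome deubiquitinase, from 33.3% and 34.0% to 12.1% (8.20 to 17.5%). Cpsf6 went from 26.7% and 24.8% to 15.9% (13.1 to 19.2%). The other shortened members were Dnajb14, Ahsa2, Ccna2, Dnajb4, Zmat3, Id3, Dnajc15, Hspa9, Dnajc5, Edem1, Fkbp4 and Hspa4l. Rhob, Plk2, Id3 and Dnajc15 had short aUTRs, of 95, 89, 29 and 34 nt, so their isoforms differ little in length. They fall in the shortest aUTR bin (25 to 121 nt), where the median RED was 0.01. The lengthened members were Mef2c and Tpm2, which are muscle genes, and Dnajc10 and Btg2. Tpm2, β-tropomyosin, had 41.1% and 44.1% in NT and 50.9% in AS (49.8 to 51.9%), and 99.4% in both MB NT libraries. Btg2 was at 75.8% and 76.5% in NT and 88.5% in AS (85.4 to 91.1%), while its gene level was higher too.

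**Figure D5:**
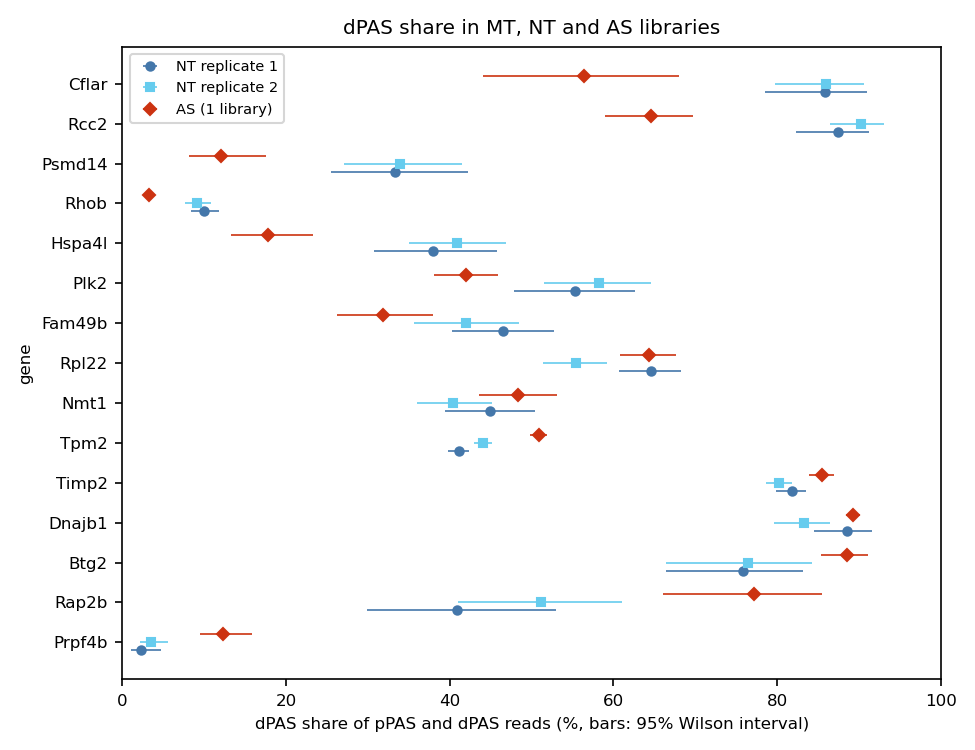
dPAS share of pPAS and dPAS reads (x axis, %) of named genes (y axis) in the 2 NT libraries and the AS library of MT cells, with Wilson 95% intervals as bars. Hspa4l, Cflar, Rcc2, Psmd14 and Rhob lie to the left in AS, and Rap2b, Prpf4b, Btg2 and Tpm2 to the right.

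In MB cells AS shortened 92 and lengthened 22 of 2035 genes by the same rule, with a median RED of -0.15. In 1829 genes compared in both, the median RED was -0.16 in MT and -0.16 in MB. Of these, 180 were shortened in MT and 90 in MB, 16 of them in both. The 16 are 8.89% of the MT genes, where 90 of all 1829 were shortened in MB. They are 17.8% of the MB genes, where 180 of all 1829 were shortened in MT. The Pearson r of RED between MT and MB across these genes was 0.02, with few reads behind many of the values. Rhob was shortened in MT but had a dPAS share of 3.28% and 2.18% in MB NT and 7.45% in MB AS. After recovery, MT RC4 had 351 shortened and 18 lengthened of 2589 genes and a median RED of -0.29. It shares the NT libraries with AS.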

How the data were processed

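The authors built 3′READS libraries of cytoplasmic RNA, removed adapters (Cutadapt), aligned reads to the mm9 genome (Bowtie2) and clustered cleavage sites lying within 24 nt. What they deposited is raw counts, one per cluster and library. Clusters under 5 reads are not listed. The members and gene lists were chosen with earlier results of these data known.

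Clusters of 12 C2C12 libraries were joined within 24 nt (40503 clusters) and assigned to GENCODE genes of the same build, or up to 4000 nt past their ends: 34621 were assigned, 132 were ambiguous and left out, and 63.3% had AATAAA or ATTAAA within 45 nt upstream. Genes were tested with edgeR 4.0.16 (quasi-likelihood test, median-ratio scaling, Benjamini-Hochberg 0.05), with 8 libraries in 6 groups and 2 residual degrees of freedom. RPM are normalized edgeR counts per 1000000 reads in nuclear genes, scaled over 8 libraries, or over 12 for the marker sums. An SE was approximated as the absolute log2 fold change divided by the square root of edgeR's F statistic. DESeq2 1.42.0 (R 4.3.3) was an alternative. Isoforms used Fisher's exact test (SciPy 1.17.1) and an edgeR model. Scripts were tested on simulated data.

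Named were genes past the test, of each list up to 4 past it or otherwise the 2 with most reads, the isoform genes of the study and the 5 highest and lowest REDs. By edgeR no gene differed between MT and MB, so none was named for that. All other genes, and list members beyond these, were named after their values were seen. Intervals cover counting error only.

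Some genes are not reported here.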

Additional observations from a re-analysis of the deposited data

Results flagged for a closer look

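Of 779 PAS clusters outside the genes counted with at least 20 reads in an MT library, 31 stood at least 2-fold above both NT libraries in AS and 75 at least 2-fold below both. Among them 4 had signal in AS above both NT libraries, with at least 50 reads and at least 4-fold. They are not in the gene comparisons, and each was seen in 1 AS library.

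A cluster at position 102466807 of chromosome 7, minus strand, was at 10.4 and 3.59 RPM in NT and 56.9 RPM in AS, 802 RPM in MT RC4 and 113 RPM in MB AS. Its last 30 nt share a run of 23 nt with those of the Hmox1 PAS, with the signal in capitals.
Chromosome 7 cluster: atAATAAAtggcattatctaacaaaaaaaa
Hmox1: gaaatAATAAAtggcattatctaacagtca
An 18-nt stretch of the cluster has 3 matches in the genome. Whether reads of Hmox1 were placed there was not tested.

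A cluster at position 22780310 of chromosome 16, plus strand, was at 7.59 and 9.59 RPM in NT and 49.1 RPM in AS, before a run of A in the genome. A cluster at position 47731722 of chromosome 6, plus strand, was not listed in NT and stood at 33.1 RPM in AS, 40.4 RPM in MT RC4 and 30.3 RPM in MB AS. It ends within 2 nt of the 3′ end of an annotated Y RNA, a small noncoding RNA of the Ro particle. A cluster at position 83926296 of chromosome 8, minus strand, was at 3.79 and 5.19 RPM in NT and 22.3 RPM in AS, also before a run of A.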

How the results depend on the processing

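The counts of called genes depended on the fit. DESeq2 gave 48 raised, 7 lowered and 10 genes differing between MT and MB, and a fit of only the 3 MT libraries, with 1 residual degree of freedom, gave 432 and 262. Counting genes at least 2-fold outside both NT libraries without a test, an alternative chosen after seeing the data, gave 253 and 173. Raised genes ranged from 0 to 0 with either MT NT replicate left out. TMM, no filter on low counts and the 3′-most exon alone kept 5 raised and the library total 4. The isoform counts moved too. Requiring more than 20 reads gave 51 lengthened and a bin difference of -0.27, and the NT reads summed gave 383 shortened and 175 lengthened. Taking the outermost PASs that held 10% of reads or more gave a median RED of -0.18. With either NT replicate left out, shortened genes ranged from 331 to 398 and lengthened from 170 to 173. The cause of these changes was not tested. The median RED was -0.13 to -0.18 and the bin difference -0.27 to -0.36 over the alternatives. With the time in the titles (0 h or 4 h) as a replicate block, also chosen after seeing the data and leaving 1 residual degree of freedom, 9 genes were raised, including the 5, and 0 lowered. No gene differed between MT and MB or in isoforms by edgeR with this block. The log2 ratios of NT replicate 2 to NT replicate 1 in MT and in MB had a Pearson r of 0.27 across 4846 genes, so libraries of the same time tended to deviate together. Depth limits the single genes: a gene under 5 reads is not listed.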

Other observations

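Reads also ended at the 3′ ends of small noncoding RNAs, which are not normally counted as polyadenylated. Of 130 such ends with a cluster in any library, 8 had at least 20 reads in MT AS or NT, 4 of them at least 2-fold above both NT libraries in AS and 0 below. All 4 were not listed in either NT library. Snord14c, a box C/D small nucleolar RNA in an intron of Hspa8, was at 40.1 RPM in AS and 30.7 RPM in MT RC4. In MB it was at 18.7 and 16.4 RPM in NT and 272 RPM in AS. The Y RNA on chromosome 6 described above was at 33.1 RPM, a second Y RNA at position 47738070 of chromosome 6, minus strand, at 11.2 RPM, and a vault RNA, part of the vault particle, at 14.1 RPM. The last 30 nt of the first 3 are shown as the ends that were measured, with no capitals since no signal was found.
Snord14c: ttccttccttggatgtctgagcgaatgaaa
Y RNA, plus strand: ccgctcccactgcttcacttgaccagcctt
Y RNA, minus strand: cccttctcactactgcacttgactagtctt
Summed over all such ends, the level was 37.9 and 90.7 RPM in NT and 169 RPM in AS. In MB the sums were far higher, at 1516 and 1427 RPM in NT and 1736 RPM in AS. The counts are small, rest on 1 AS library and were not tested.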
